A study of Mus musculus with 23 samples.

Results

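The transcripts of 10 regulators and effectors of the integrated stress response, namely Atf4, Ddit3, Atf3, Atf5, Cebpb, Cebpg, Trib3, Sesn2, Chac1 and Asns, were followed across all 8 groups of an RNA sequencing study of mouse CD4+ T cells. They were taken by name from a count table of 53379 genes, and all 10 passed the filter on low counts that left 16882 genes to test. The cells were splenic T cells of C57BL/6 background, sorted as CD45+, CD3+, CD4+ and CD8-, and every culture held IL-2 at 30 IU/ml for 72 h. The groups were Gpr109a-/- or wild type by label, stimulated with anti-CD3/CD28 or left in IL-2 alone, with 5 mM niacin or without it. Each group had 3 libraries, apart from 2 for unstimulated knockout-labelled cells with niacin. The sources used here give neither the age of the mice nor the design of the knockout allele, and nothing says that replicates came from separate animals, so p-values measure only the spread between these libraries.

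In the integrated stress response, kinases that sense a lack of amino acids, unfolded protein, viral RNA or failing mitochondria phosphorylate the translation factor eIF2 alpha. Most protein synthesis then slows, while translation of the Atf4 transcript rises through its upstream reading frames. The ATF4 protein, paired with other basic leucine zipper factors, switches on genes of amino acid supply, and CHOP, the product of Ddit3, can turn a prolonged response towards cell death. In T cells, activation through CD3 and CD28 raises the demand for amino acids, and ATF4 is known to support their uptake and synthesis there. The counts describe transcripts, and neither ATF4 protein nor eIF2 alpha phosphorylation was measured.

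ATF4 binds composite elements that join a C/EBP part to an ATF part, searched here as TGATGNAA on both strands of the RefSeq promoter windows (build GRCm38.p6), from 250 bases before each start site to 50 after it. All 10 genes matched the table, with 11 windows because Atf5 has 2. A match was found in 4 of these 11 windows, against 3.97% of 32851 windows of 300 bases. The cAMP response element TGACGTCA was in 0 of the 11 windows and in 1.79% of all windows. The endoplasmic reticulum stress element, searched as CCAAT followed by 9 bases and CCACG, was in 0 of the 11 and in 0.119% of all. No match says only that these letters are not in the window. No window of these genes held more than 1 match. Of the 4 genes with a match, Asns, Chac1 and Atf3 are those with the largest response to stimulation described below. The other, Trib3, rose by an amount close to those of Atf4 and Sesn2, which have no match. Whether a match bears on the size of the response was not tested. All 4 promoters with a match are shown. Each runs 5′ to 3′ on the gene's own strand to 30 bases past the start site, with the matched bases in capitals. The match begins 23 bases before the start site in Asns (TGATGAAA, on the gene's strand), 193 bases before it in Chac1 (TTGCATCA, on the other strand), 110 bases before it in Atf3 (TTGCATCA, on the other strand) and at base 15 after it in Trib3 (TTACATCA, on the other strand).
Asns, chr6:7693180-7693459, minus strand: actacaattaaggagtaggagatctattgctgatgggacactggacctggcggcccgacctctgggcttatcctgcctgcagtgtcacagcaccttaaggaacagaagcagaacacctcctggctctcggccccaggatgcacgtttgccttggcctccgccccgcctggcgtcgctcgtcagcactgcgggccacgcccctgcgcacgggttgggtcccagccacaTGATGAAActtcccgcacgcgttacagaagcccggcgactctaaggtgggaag
Chac1, chr2:119350992-119351271, plus strand: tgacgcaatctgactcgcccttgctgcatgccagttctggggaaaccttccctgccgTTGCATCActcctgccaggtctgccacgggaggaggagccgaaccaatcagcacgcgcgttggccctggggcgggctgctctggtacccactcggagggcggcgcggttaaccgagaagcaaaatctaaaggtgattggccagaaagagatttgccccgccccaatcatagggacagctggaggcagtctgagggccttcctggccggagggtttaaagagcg
Atf3, chr1:191183304-191183583, minus strand: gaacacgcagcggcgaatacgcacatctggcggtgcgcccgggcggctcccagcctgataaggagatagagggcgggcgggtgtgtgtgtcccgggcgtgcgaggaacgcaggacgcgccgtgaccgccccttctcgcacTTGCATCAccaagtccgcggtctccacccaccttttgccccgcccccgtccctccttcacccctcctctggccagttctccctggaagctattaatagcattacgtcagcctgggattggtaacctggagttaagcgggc
Trib3, chr2:152344031-152344310, minus strand: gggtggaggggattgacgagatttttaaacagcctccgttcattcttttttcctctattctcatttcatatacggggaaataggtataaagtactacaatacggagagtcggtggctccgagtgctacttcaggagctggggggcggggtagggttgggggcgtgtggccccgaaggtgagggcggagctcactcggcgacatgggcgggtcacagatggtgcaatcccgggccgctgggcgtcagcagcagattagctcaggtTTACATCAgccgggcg
A match is a description of the sequence, and binding was not measured.

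Library totals ran from 13205565 to 30090018 counts. Hcar2, the current name of Gpr109a, goes against the labels: the libraries labelled knockout held 0 to 32 Hcar2 counts each, with 10 of 11 above 0, while the 12 libraries labelled wild type held 1 count in all. Directions by genotype are therefore those of the labels. CD4 T cell markers summed to 4333 to 7243 CPM (counts scaled to a common library total with TMM factors) and myeloid and dendritic cell markers to 0.846 to 14.3 CPM over all libraries. Library 3 of the unstimulated knockout-labelled cells stood apart with the lowest total and the lowest CD4 T cell marker sum. It is also the 1 library whose column in the deposited table lacks a tag that the names of the other 22 carry, and what the tag stands for is not stated. Its B cell marker sum was also the lowest, 417 CPM, and its myeloid marker sum of 7.36 CPM was close to the 6.23 and 6.25 CPM of its group. In the group with stimulus, niacin and the wild-type label, mitochondrial genes took 0.187% and 0.216% of the counts of libraries 1 and 2, and 0.605% of those of library 3. Other groups were uneven too, in order of library number. The shares were 0.562%, 0.514% and 0.374% in stimulated knockout-labelled cells with niacin. Without niacin, unstimulated cells had 0.346%, 0.937% and 0.802% under the wild-type label and 0.795%, 0.643% and 0.407% under the knockout label. These are bulk samples scaled to a common total, so fewer cells of a type and less RNA per cell cannot be told apart.

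Stimulation raised the transcripts of the stress response together. In wild-type-labelled cells without niacin, all 10 genes rose (edgeR quasi-likelihood test, adjusted p under 0.05), where 23.4% of all genes tested rose. In knockout-labelled cells without niacin 8 of 10 rose, against 25.2% of all genes, and the exceptions were Cebpb and Atf5. With niacin, 9 of 10 rose in knockout-labelled cells (24.5% of all genes), the exception being Atf5, and 10 of 10 rose in wild-type-labelled cells (26% of all genes). None fell. The median log2 fold change of the 10 genes was 2.10 in knockout-labelled cells with niacin, 2.13 in knockout-labelled cells without it, 2.39 in wild-type-labelled cells with niacin and 2.07 in wild-type-labelled cells without it, whereas that of all genes tested lay between -0.13 and -0.07. With that low-depth library 3 left out, a choice made with results of these data known, all 10 genes rose in knockout-labelled cells without niacin. That fit called 9144 of all genes in either direction, against 8903 with every library kept. When libraries were left out singly, 8 to 9 of the 10 genes were called in wild-type-labelled cells without niacin and 9 in those with it. In knockout-labelled cells the same step gave 8 to 10 calls without niacin and 8 to 9 with it.

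**Figure D1:**
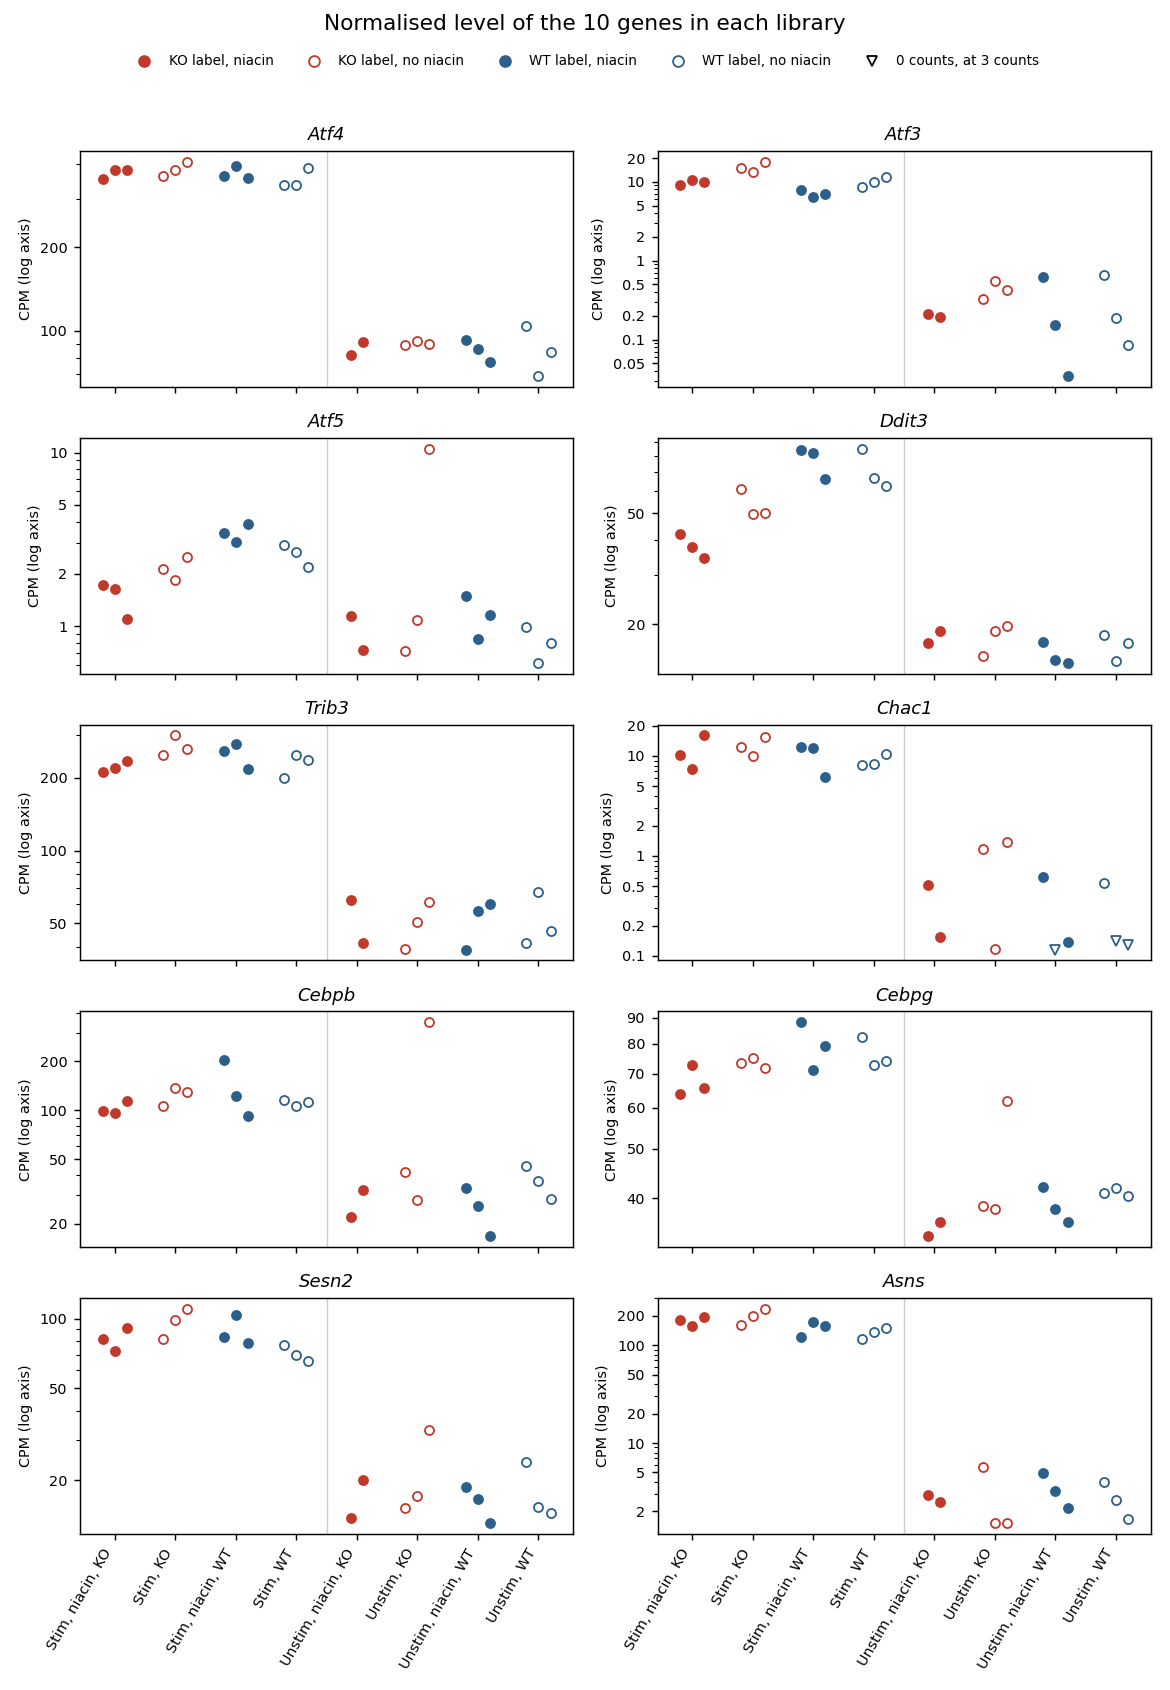
Level of each of the 10 genes in every library, in CPM on a log axis, with 1 panel per gene. Groups run from stimulated (left of the grey line) to unstimulated (right), points are libraries, red marks the knockout label and blue the wild-type label, filled points had niacin, and open triangles are libraries with 0 counts drawn at the level of 3 counts. Stimulated libraries lie above unstimulated ones for 8 genes; for Cebpb 1 unstimulated knockout-labelled library is high, at 350 CPM, and for Atf5 the ranges overlap, with the same library at 10.5 CPM.

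Atf4 itself, the transcription factor at the head of the pathway (ENSMUSG00000042406, chr15:80255184-80257540, plus strand, GRCm38), had the highest mean level of the 10 per length of transcript in 7 of the 8 groups; in unstimulated knockout-labelled cells without niacin the mean of Cebpb was higher, through 1 library. It was at 354, 381 and 381 CPM in stimulated knockout-labelled cells with niacin, and at 361, 382 and 407 CPM in those without it. Stimulated wild-type-labelled cells held 362, 394 and 357 CPM with niacin and 335, 337 and 386 CPM without it. These 12 libraries overlap from group to group. Unstimulated cells held 82.1 and 90.8 CPM (knockout label, niacin), 88.6, 92.0 and 89.8 CPM (knockout label, no niacin), 92.6, 85.7 and 77.5 CPM (wild-type label, niacin) and 104, 68.6 and 84.1 CPM (wild-type label, no niacin), far below every stimulated library. The log2 fold change with stimulation was between 2.04 ± 0.13 and 2.12 ± 0.13 (SE) in the 4 settings of label and niacin, with adjusted p from 2.84e-09 to 1.34e-10 in edgeR's quasi-likelihood test.

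Asns, which encodes asparagine synthetase and is a classical ATF4 target (ENSMUSG00000029752, chr6:7675169-7693254, minus strand), showed the largest rise of the 10 with stimulation in knockout-labelled cells. Stimulated knockout-labelled cells held 181, 155 and 192 CPM with niacin and 159, 197 and 235 CPM without it, and stimulated wild-type-labelled cells held 121, 172 and 158 CPM with niacin and 115, 138 and 151 CPM without it. Unstimulated libraries held between 1.52 and 5.71 CPM. Every stimulated library was far above every unstimulated one. The log2 fold change was 6.01 ± 0.51 in knockout-labelled cells with niacin, 6.00 ± 0.43 in those without it, 5.45 ± 0.41 in wild-type-labelled cells with niacin and 5.60 ± 0.42 in those without it (SE). Its promoter, shown above, carries the matched element next to the start site.

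Atf3 and Chac1 were near 0 in unstimulated cells. Atf3, an immediate repressor or activator induced by many stresses (ENSMUSG00000026628, chr1:191170296-191218039, minus strand), was at 9.12, 10.7 and 10.02 CPM in stimulated knockout-labelled cells with niacin and 15.0, 13.2 and 17.9 CPM in those without it. It was at 7.87, 6.34 and 6.92 CPM in stimulated wild-type-labelled cells with niacin and 8.47, 10.1 and 11.5 CPM in those without it. Unstimulated libraries held 0.0342 to 0.663 CPM, with 80 counts in all over 11 libraries. Its log2 fold change with stimulation was 5.58 ± 0.69 and 5.14 ± 0.55 in knockout-labelled cells with and without niacin, and 4.74 ± 0.56 and 4.96 ± 0.55 in wild-type-labelled cells with and without it. Chac1, an enzyme that breaks down glutathione (ENSMUSG00000027313, chr2:119351229-119354381, plus strand), was at 6.20 to 16.1 CPM in the 12 stimulated libraries. Among unstimulated libraries it held 12 and 4 counts (knockout label, niacin), 33, 3 and 16 counts (knockout label, no niacin), 15, 0 and 4 counts (wild-type label, niacin) and 13, 0 and 0 counts (wild-type label, no niacin). The 2 libraries at 0 in the last group allow up to 0.142 and 0.127 CPM (3 counts, counting error only). All stimulated libraries were above all unstimulated ones, with log2 fold changes from 3.89 ± 0.80 to 5.55 ± 0.92, whose size rests on these few counts.

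Trib3 and Sesn2 rose with stimulation by amounts close to that of Atf4. Trib3, a pseudokinase that binds ATF4 and CHOP and restrains them (ENSMUSG00000032715, chr2:152337422-152344032, minus strand), ranged over 199 to 300 CPM in stimulated libraries and 38.9 to 67.5 CPM in unstimulated ones, with log2 fold changes from 2.10 ± 0.25 to 2.43 ± 0.21. Sesn2, a leucine sensor that restrains mTORC1 (ENSMUSG00000028893, chr4:132492032-132510501, minus strand), ranged over 65.6 to 110 CPM in stimulated libraries and 13.1 to 33.0 CPM in unstimulated ones. Its log2 fold changes ran from 1.97 ± 0.26 to 2.46 ± 0.26. Among all pairs of the 10 genes, the group profiles of Atf4 and Trib3 were the most alike, with a root mean square difference of 0.11 between centred log2 means over the 8 groups, followed by Trib3 and Sesn2 at 0.13 and Atf4 and Sesn2 at 0.14. These are descriptions over 8 groups of shared libraries.

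Cebpg, the small C/EBP partner of ATF4 (ENSMUSG00000056216, chr7:35046422-35056573, minus strand), had the smallest rise among the genes called in all 4 comparisons. It ranged over 63.8 to 88.2 CPM in stimulated libraries and 33.7 to 61.9 CPM in unstimulated ones. The 61.9 CPM was in the low-depth library 3 of the knockout-labelled cells without niacin, where its group otherwise held 38.6 and 38.1 CPM. Its log2 fold change was 0.95 ± 0.18 in knockout-labelled cells with niacin, 0.67 ± 0.15 in those without it, 1.04 ± 0.16 in wild-type-labelled cells with niacin and 0.90 ± 0.16 in those without it. The call without niacin in knockout-labelled cells was lost when only the compared groups entered the fit (adjusted p = 0.0566).

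**Figure D2:**
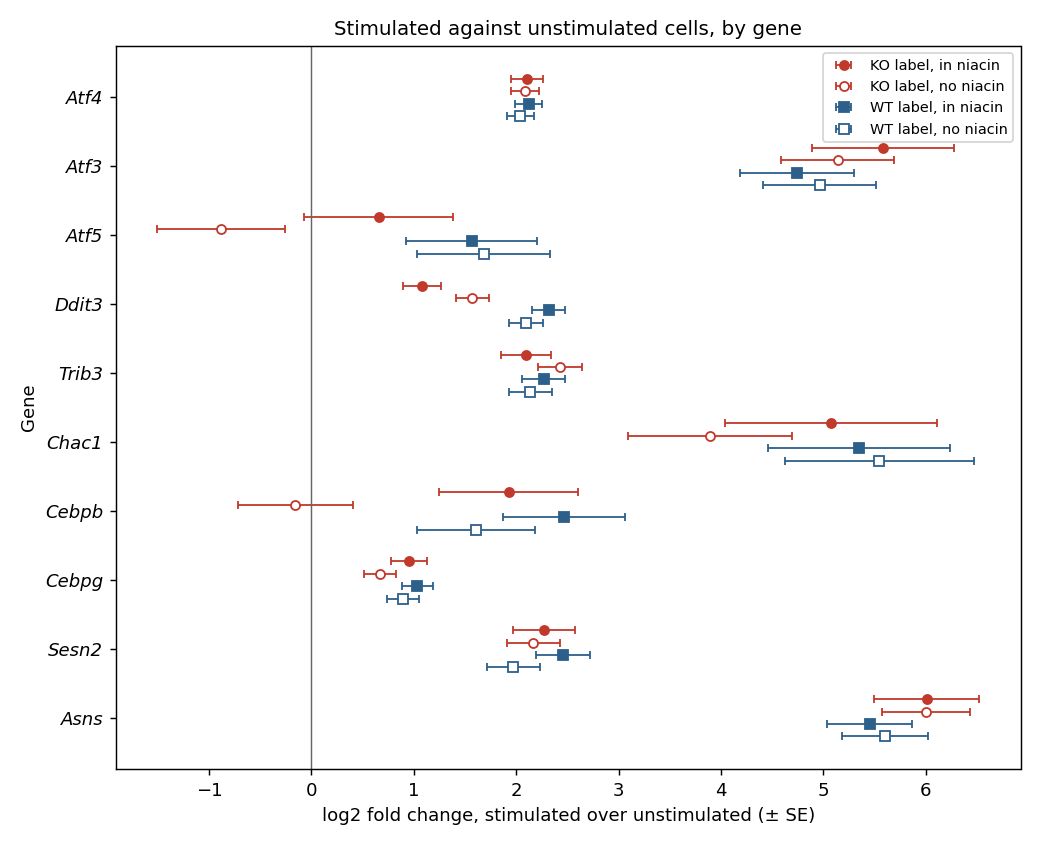
The log2 fold change of each gene, stimulated over unstimulated, with its standard error, from edgeR. Circles are knockout-labelled cells and squares wild-type-labelled cells, filled in niacin and open without it. Asns, Atf3 and Chac1 lie farthest to the right, Cebpg stays between 0.67 and 1.04, and Cebpb and Atf5 lie below 0 in knockout-labelled cells without niacin.

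Cebpb and Atf5 turned on a single library. Cebpb, a C/EBP factor of inflammation and the stress response (ENSMUSG00000056501, chr2:167688915-167690418, plus strand), was at 99.3, 95.97 and 113 CPM in stimulated knockout-labelled cells with niacin and 107, 138 and 130 CPM in those without it. Stimulated wild-type-labelled cells held 204, 123 and 92.5 CPM with niacin and 116, 106 and 112 CPM without it. Unstimulated knockout-labelled cells held 21.8 and 32.2 CPM with niacin, and without it 41.7, 28.1 and, in library 3, 350 CPM, above every other library of the study. Unstimulated wild-type-labelled cells held 33.3, 25.7 and 16.7 CPM with niacin and 45.0, 36.4 and 28.2 CPM without it. With all libraries the log2 fold change with stimulation in knockout-labelled cells without niacin was -0.16 ± 0.56 (adjusted p = 0.828 in edgeR), and without library 3 it was 1.84 (adjusted p = 5.40e-05). In wild-type-labelled cells Cebpb rose by 2.47 ± 0.60 with niacin and 1.61 ± 0.58 without it, and in knockout-labelled cells with niacin by 1.93 ± 0.68 (log2). The call in wild-type-labelled cells without niacin was lost when any of 4 of its 6 libraries was left out (adjusted p up to 0.101), and that in knockout-labelled cells with niacin without either unstimulated library (0.163 and 0.0683). That in wild-type-labelled cells with niacin was lost without stimulated libraries 1 and 2 (1.85, adjusted p = 0.0726).

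Atf5, a relative of ATF4 with a role in the mitochondrial stress response (ENSMUSG00000038539, chr7:44812256-44816658, minus strand), was the least abundant of the 10 per length of transcript in stimulated cells. It was at 1.72, 1.63 and 1.10 CPM in stimulated knockout-labelled cells with niacin and 2.13, 1.84 and 2.51 CPM in those without it. It was at 3.43, 3.04 and 3.88 CPM in stimulated wild-type-labelled cells with niacin and 2.92, 2.69 and 2.18 CPM in those without it. The same library 3 of the unstimulated knockout-labelled cells held 10.5 CPM, where its group otherwise held 0.718 and 1.09 CPM and the other unstimulated libraries 0.614 to 1.49 CPM. The log2 fold change with stimulation there was -0.88 ± 0.63 (adjusted p = 0.241 in edgeR), and without library 3 it was 1.25 (adjusted p = 0.00989). In wild-type-labelled cells Atf5 rose by 1.57 ± 0.64 with niacin and 1.68 ± 0.65 without it (log2), calls that were lost when any 1 of the compared libraries was left out (adjusted p 0.0557 to 0.133). Of the other 8 genes, Cebpg (61.9 CPM), Sesn2 (33.0 CPM), Ddit3 (19.8 CPM) and Chac1 (1.37 CPM) were also highest among unstimulated libraries in library 3, while Atf4 (89.8 CPM), Trib3 (61.1 CPM), Atf3 (0.428 CPM) and Asns (1.54 CPM) lay within the range of the other unstimulated libraries. The part of depth, of the low marker sums or of the column name that sets this library apart was not tested.

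Some of these genes share exon bases with neighbours, and the sources used here do not give the strand setting of the counting. Cebpb shares 312 of its 1504 bases with Tmem189 on the opposite strand, and Tmem189 was at 128 CPM in the library where Cebpb was at 350 CPM, against 77.0 to 104 CPM elsewhere. Atf5 shares 82 of 1993 bases with Nup62 and Il4i1, both on the opposite strand. Nup62 averaged 245 CPM over all libraries and Il4i1 0.328 CPM, and without strand the reads of Atf5 and Nup62 over the shared bases cannot be told apart. Ddit3 shares 68 of 1713 bases with Mars, and Cebpg shares 73 of 5621 bases with Gm44836 on its own strand.

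Per kilobase of counted exon, the order in stimulated wild-type-labelled cells without niacin was Atf4 (205 ± 16.7), Trib3 (107 ± 12.3), Cebpb (74.0 ± 3.55), Asns (49.2 ± 6.59), Ddit3 (41.8 ± 6.95), Sesn2 (20.3 ± 1.63), Cebpg (13.6 ± 0.920), Chac1 (5.45 ± 0.797), Atf3 (4.65 ± 0.710) and Atf5 (1.30 ± 0.190), in CPM per kb (SD, n = 3). Asns and Ddit3, and Chac1 and Atf3, did not differ beyond their spread. In unstimulated wild-type-labelled cells without niacin Atf4 (49.7 ± 10.4) again led, followed by Trib3 (24.4 ± 6.45) and Cebpb (24.3 ± 5.60), which did not differ beyond their spread. Ddit3 (9.78 ± 1.06) came next, then Cebpg (7.31 ± 0.140) and Sesn2 (5.18 ± 1.53). Asns lay at 1.01 ± 0.421, Atf5 at 0.404 ± 0.0955, Atf3 at 0.145 ± 0.143 and Chac1 at 0.110 ± 0.190 CPM per kb. Asns thus stood above Ddit3, Cebpg and Sesn2 in stimulated cells and below all 3 in unstimulated ones, though its stimulated level was within the spread of Ddit3.

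Ddit3, which encodes CHOP (ENSMUSG00000025408, chr10:127290774-127296288, plus strand), was the 1 gene of the 10 called by genotype label, in stimulated cells with niacin. Stimulated knockout-labelled cells held 42.2, 37.7 and 34.5 CPM with niacin and 61.0, 49.6 and 49.9 CPM without it. Stimulated wild-type-labelled cells held 84.0, 82.1 and 66.5 CPM with niacin and 85.1, 67.0 and 62.7 CPM without it. All 6 knockout-labelled libraries were below all 6 wild-type-labelled ones, at the narrowest 61.0 against 62.7 CPM. Within the knockout label the niacin libraries were the lower. The share of all genes separated by label over both conditions together was not computed. Unstimulated cells held 17.1 and 19.0 CPM (knockout label, niacin), 15.4, 18.9 and 19.8 CPM (knockout label, no niacin), 17.3, 14.8 and 14.5 CPM (wild-type label, niacin) and 18.4, 14.8 and 17.1 CPM (wild-type label, no niacin), and these overlapped between labels. Stimulation raised Ddit3 by 1.08 ± 0.18 in knockout-labelled cells with niacin, 1.57 ± 0.16 in those without it, 2.32 ± 0.17 in wild-type-labelled cells with niacin and 2.09 ± 0.16 in those without it (log2, SE).

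With niacin, Ddit3 was lower in stimulated knockout-labelled cells, at 38.1 ± 3.87 CPM, than in stimulated wild-type-labelled cells, at 77.5 ± 9.59 CPM (SD, n = 3 each). The log2 fold change was -1.02 ± 0.16 (SE), with adjusted p = 0.00317 in edgeR. It was the single gene of the 10 to pass in that comparison, where 1.44% of all genes passed and 0.865% of all genes passed as lower. DESeq2 and voom with quality weights called it as well, and the call held when any 1 of the 6 libraries was left out (adjusted p 0.00178 to 0.0417). It was lost without libraries 1 and 2 of the wild-type-labelled group, those with the low mitochondrial share (-0.83, adjusted p = 0.231), when 1 library of that group and 7 calls among all genes remained. Mars, which overlaps Ddit3, was at 332 to 378 CPM in stimulated knockout-labelled cells with niacin, against 283 to 340 CPM in stimulated wild-type-labelled cells with niacin, and these ranges overlap.

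Without niacin, Ddit3 averaged 53.5 ± 6.5 CPM in stimulated knockout-labelled cells and 71.6 ± 11.9 CPM in stimulated wild-type-labelled cells (SD, n = 3 each). That log2 fold change of -0.42 ± 0.16 did not pass (adjusted p = 0.448), and 0 of the 10 genes passed where 0.113% of all genes did. Of the 10, 1 gene, Ddit3, had an unadjusted p under 0.05, as did 8.45% of all genes. In unstimulated cells the difference was 0.21 ± 0.18 with niacin and 0.10 ± 0.16 without it. The 10 genes had 0 calls there by edgeR, against 0.0355% of all genes with niacin and 0.0415% without it, and 0 of them with niacin and 3 without it had an unadjusted p under 0.05, against 0.983% and 10.4% of all genes. The 3 were Cebpb (1.93 ± 0.58), Atf5 (2.30 ± 0.66) and Chac1 (2.16 ± 0.98), and with the low-depth library 3 left out Cebpb was at -0.07 and Atf5 at 0.16. The test of whether the genotype difference in Ddit3 changed with stimulation gave -1.24 ± 0.24 in niacin, with an unadjusted p of 3.66e-05 and adjusted p = 0.181 in edgeR, where 0% of all genes passed. DESeq2 (adjusted p = 0.000900) and voom (0.000934) called it, with 68 and 2105 genes called in all. Without niacin the same test gave -0.52 ± 0.22 (adjusted p = 0.451), where 0.00592% of all genes passed.

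**Figure D3:**
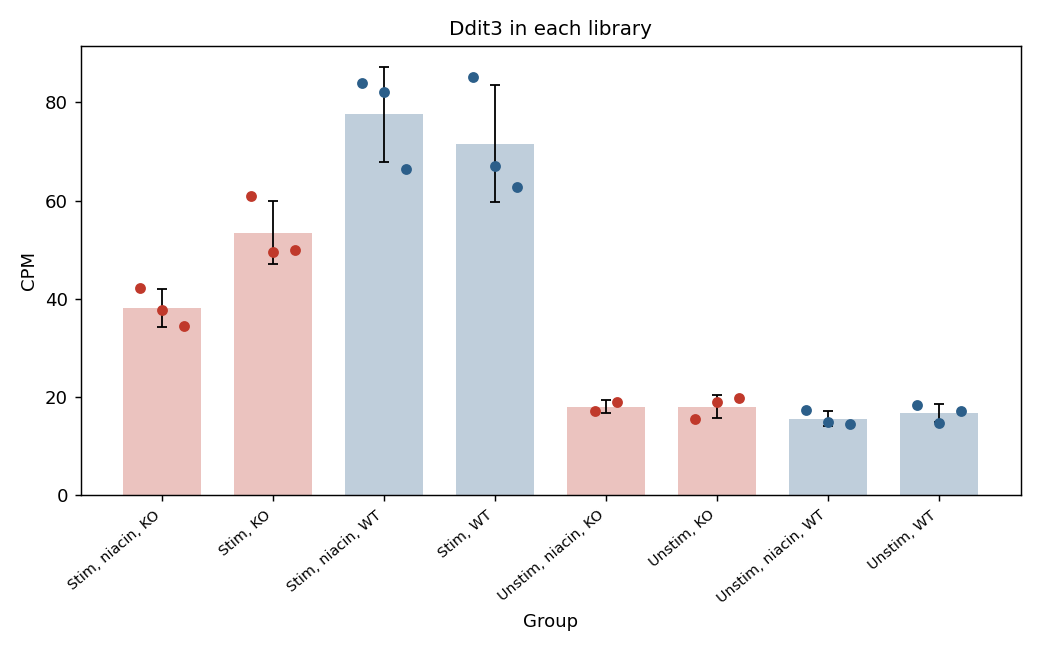
Ddit3 in CPM in each library (points), with the mean of each group (bars) and its SD (lines), from stimulated on the left to unstimulated on the right. Knockout-labelled libraries are red and wild-type-labelled ones blue, and the stimulated knockout-labelled libraries lie between 34.5 and 61.0 CPM, below the 62.7 to 85.1 CPM of the stimulated wild-type-labelled ones.

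Among the others, Atf3 and Atf5 also separated by label in stimulated cells. Atf3 was higher in knockout-labelled cells in both conditions without overlap, by 0.50 ± 0.43 with niacin and 0.62 ± 0.43 without it (log2, adjusted p = 0.565 and 0.766). Atf5 with niacin averaged 1.49 ± 0.338 CPM in knockout-labelled cells and 3.45 ± 0.423 CPM in wild-type-labelled cells (SD, n = 3 each), a log2 fold change of -1.21 ± 0.63 with adjusted p = 0.295 in edgeR, which voom called (0.0193) and edgeR called without the shallowest library (0.0240). Ddit3 and Atf5 made 2 genes with separate, lower groups in niacin, where 14% of all genes were separate and lower, and Atf3 made 1 higher, where 12.5% were. Without niacin, Ddit3 was the 1 gene with a separate, lower group (11.2% of all genes), and Atf3, Sesn2 and Asns were separate and higher (9.34%), at 0.62 ± 0.43, 0.45 ± 0.25 and 0.55 ± 0.33. Atf4 differed between the labels by 0.00 ± 0.13 with niacin and 0.12 ± 0.13 without it. The niacin and genotype comparisons share libraries and are not independent of each other.

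Niacin changed none of the 10 genes past the threshold. In stimulated knockout-labelled cells 0 of 10 passed in edgeR, where 0.00592% of all genes did, and in stimulated wild-type-labelled cells 0 of 10, where 0% did. At an unadjusted p under 0.05 there was 1 gene, Ddit3, under the knockout label, where 5.22% of all genes were, and 0 under the wild-type label, where 9.96% were. DESeq2 and voom called 0 of the 10 in both, with 11 and 8 of all genes called under the knockout label and 42 and 1828 under the wild-type label. All 10 log2 fold changes were below 0 in knockout-labelled cells, with a median of -0.26, and 9 of 10 were above 0 in wild-type-labelled cells, with a median of 0.15. The medians of all genes tested were 0.01 and 0.00, and the share of all genes by sign was not computed. The 10 genes were read in the same libraries, so their signs are not separate observations. The wild-type values include niacin libraries 1 and 2, those with the low mitochondrial share.

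In stimulated knockout-labelled cells the niacin libraries of Ddit3 lay below those without niacin, with a log2 fold change of -0.49 ± 0.16 that did not pass (95% interval -0.82 to -0.16, unadjusted p of 0.00540, adjusted p = 0.784). In stimulated wild-type-labelled cells it was 0.11 ± 0.16 (95% interval -0.21 to 0.44). The test of the difference between these effects gave -0.60 ± 0.22 (unadjusted p of 0.0128, adjusted p = 0.925), and 0 of the 10 genes passed it, as did 0% of all genes. Under the knockout label the niacin libraries of Atf3, Atf5, Ddit3 and Trib3 were all below those without niacin, 4 of 10 genes where 6.82% of all genes were so placed. Under the wild-type label Atf5 and Sesn2 were separate and higher, where 7.41% of all genes were, and Atf3 was separate and lower, where 6.78% were.

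Among the genes followed here, Atf3 was thus the 1 whose niacin libraries lay below the others under both labels in stimulated cells. The share of all genes so placed under both labels together was not computed. The log2 fold changes of Atf3 were -0.63 ± 0.43 in knockout-labelled cells and -0.51 ± 0.43 in wild-type-labelled cells. Neither passed (adjusted p = 1.00 and 0.706 in edgeR), and the difference between the labels was -0.12 ± 0.61. Trib3 averaged 222 ± 11.7 CPM with niacin and 271 ± 26.4 CPM without it in knockout-labelled cells, and 251 ± 30.3 CPM with niacin and 228 ± 26.1 CPM without it in wild-type-labelled cells (SD, n = 3 each). Sesn2 stood at 81.7 ± 9.29 CPM with niacin and 96.9 ± 14.5 CPM without it in knockout-labelled cells, and at 88.4 ± 13.4 CPM with niacin and 70.7 ± 5.67 CPM without it in wild-type-labelled cells. The intervals of the niacin effect on Atf4, -0.31 to 0.23 under the knockout label and -0.20 to 0.34 under the wild-type label, bound it more tightly than those of Chac1, -1.57 to 1.23 and -1.22 to 1.59.

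**Figure D4:**
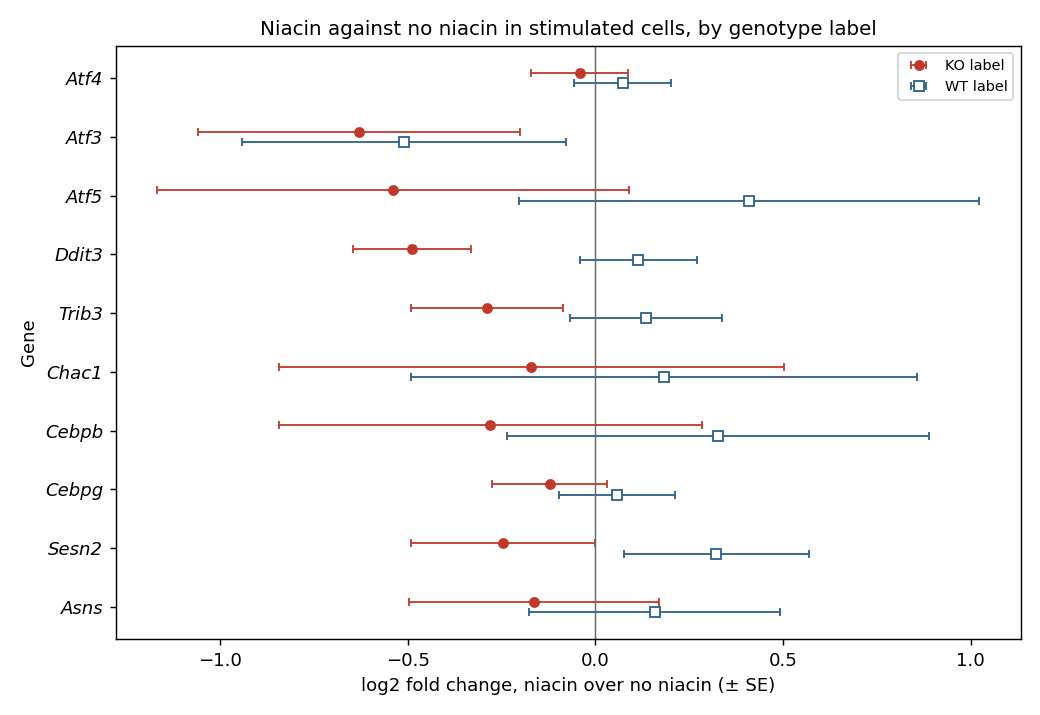
The log2 fold change of each gene, niacin over no niacin, in stimulated cells, with its standard error. Red circles are knockout-labelled cells, where all 10 values lie below 0, and blue squares wild-type-labelled cells, where 9 of 10 lie above 0. The blue values include niacin libraries 1 and 2, those with the low mitochondrial share. No gene passed the threshold under either label.

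In unstimulated cells niacin gave 0 calls among the 10 genes in edgeR under either label, as among all genes (0%). There were 3 genes with an unadjusted p under 0.05 under the knockout label, Cebpb, Atf5 and Cebpg, where 7.96% of all genes were, and 0 under the wild-type label, where 2.71% were. Cebpb and Atf5 stood at -2.36 ± 0.69 and -2.08 ± 0.76 under the knockout label, and at -0.37 and 0.06 without library 3 of the cells without niacin, the one that stood apart. Under that label Cebpg held 33.7 and 35.9 CPM with niacin, and without it 38.6, 38.1 and, in that library 3, 61.9 CPM. Atf4 differed by -0.06 ± 0.15 and -0.01 ± 0.13 under the knockout and wild-type labels. The tests of whether stimulation acted differently in niacin had 0 of 10 calls under both labels, again where 0% of all genes passed, and so did the test of whether the niacin effect in unstimulated cells differed by label, where 0.00592% did.

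The rest of the pathway was read from lists chosen with earlier results of these data known, here in stimulated against unstimulated cells without niacin. In these comparisons 25.2% of all genes rose and 27.5% fell under the knockout label, and 23.4% rose and 21.7% fell under the wild-type label. Of 13 ATF4 targets in amino acid synthesis and one-carbon metabolism, 12 rose under each label, with a median log2 fold change of 2.22 under the knockout label and 1.76 under the wild-type label. Gpt2, an alanine aminotransferase, averaged 64.4 ± 15.7 CPM in stimulated and 1.58 ± 0.747 CPM in unstimulated knockout-labelled cells, and 44.7 ± 3.49 against 1.70 ± 0.679 CPM in wild-type-labelled cells. Psat1, of serine synthesis, averaged 505 ± 39.6 CPM in stimulated and 62.1 ± 27.2 CPM in unstimulated knockout-labelled cells, and 396 ± 78.5 against 71.4 ± 26.2 CPM in wild-type-labelled cells. Pycr1, of proline synthesis, rose by 4.75 ± 0.39 under the knockout label and 4.26 ± 0.37 under the wild-type label (log2).

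Of 10 amino acid transporters 6 rose under each label, and 0 fell under the knockout label and 1 under the wild-type label. Slc7a5, the leucine transporter, averaged 713 ± 52.5 CPM in stimulated and 105 ± 36.4 CPM in unstimulated knockout-labelled cells, and 497 ± 58.6 against 95.4 ± 34.0 CPM in wild-type-labelled cells. Of 14 genes of tRNA synthetases and tRNA export, 13 rose under the knockout label and 12 under the wild-type label, where 1 fell. Cars, the cysteinyl-tRNA synthetase, averaged 237 ± 18.9 CPM in stimulated and 50.3 ± 3.52 CPM in unstimulated knockout-labelled cells, and 215 ± 19.4 against 53.9 ± 5.58 CPM in wild-type-labelled cells. Of 13 other ATF4 or CHOP targets tested, 10 rose under each label. Nupr1, a small stress protein, averaged 10.05 ± 0.523 CPM in stimulated and 0.335 ± 0.136 CPM in unstimulated knockout-labelled cells, and 9.37 ± 0.497 against 0.114 ± 0.0618 CPM in wild-type-labelled cells. Vldlr, a lipoprotein receptor, was at 39.7 ± 4.72 CPM in stimulated knockout-labelled and 41.3 ± 7.95 CPM in stimulated wild-type-labelled cells, and had 0 counts in the 6 unstimulated libraries without niacin.

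Of 4 eIF2 alpha kinase genes, 2 rose under the knockout label, where 25.2% of all genes did, and 1 under the wild-type label, where 23.4% did. Eif2ak4, which encodes the amino acid sensor GCN2, averaged 29.4 ± 1.65 CPM in stimulated and 20.4 ± 3.58 CPM in unstimulated knockout-labelled cells, and 33.0 ± 0.898 against 18.4 ± 2.06 CPM in wild-type-labelled cells. Of 11 genes of eIF2 and its control, 8 rose under the knockout label and 4 under the wild-type label. Of 3 genes of the mitochondrial relay 1, Dele1, rose under each label. The kinase count under the wild-type label and the relay counts are near the share of all genes. Of 17 genes in the ATF6 and IRE1 branches of the unfolded protein response, 11 rose and 1 fell under the knockout label, and 7 rose and 1 fell under the wild-type label. Xbp1, a transcription factor of this list, rose by 2.51 ± 0.18 under the knockout label and 2.31 ± 0.18 under the wild-type label (log2). Over the 13 alternatives tried for each of these comparisons, libraries left out included, the wild-type-label calls of either direction ran from 3 to 9 genes in this list and from 2 to 6 in eIF2 and its control, and the knockout-label calls among the kinases from 0 to 3.

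Of 17 relatives and partners of the 10 genes tested, 4 rose and 7 fell under the knockout label, where 25.2% of all genes rose and 27.5% fell. Under the wild-type label 3 rose and 6 fell, where 23.4% of all genes rose and 21.7% fell, so the counts of those that rose are no more than the share of all genes. Trib2, a relative of Trib3, averaged 102 ± 8.30 CPM in stimulated and 443 ± 86.2 CPM in unstimulated knockout-labelled cells, and 161 ± 13.9 against 424 ± 66.3 CPM in wild-type-labelled cells. It was also lower in stimulated knockout-labelled cells with niacin than in stimulated wild-type-labelled cells with niacin (log2 fold change -0.71 ± 0.18, adjusted p = 0.0458 in edgeR), the 1 gene of the 99 tested in these lists that passed there, where 1.44% of all genes passed. Sesn1, a p53-linked relative of Sesn2, had a log2 fold change of -1.44 ± 0.16 under the knockout label. Of the 99 tested genes of all lists, 75 changed with stimulation in knockout-labelled cells with niacin, 74 in those without it, 71 in wild-type-labelled cells with niacin and 65 in those without it, in either direction. The shares of all genes in the same order were 49.8%, 52.7%, 52.6% and 45.1%. Of the same genes, 0 passed in edgeR for niacin in stimulated cells under either label, with 1 gene at an unadjusted p under 0.05 under the knockout label and 5 under the wild-type label, against 5.22% and 9.96% of all genes.

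Other genes were ranked by how close their centred log2 means over the 8 groups came to each of the 10, among 10476 genes (10477 for Atf5) with a mean of at least 5 CPM in some group. Ddit3 was closest to Smox (root mean square difference 0.11), Lpin1 (0.13) and Isoc2b (0.13). Atf4 was closest to Cisd1 (0.05), H1f0 (0.07) and Smyd2 (0.08), and Trib3 to Cars (0.09), a gene of the tRNA synthetase list. The nearest to Asns was Bnip3 (0.25), and the nearest to Chac1 were Dpf1 (0.34) and the pathway gene Nupr1 (0.36). The differences are in log2 units and were not scaled to the range of each gene, which was 6.30 for Asns, 6.26 for Chac1 and 2.31 for Ddit3. The nearest to Atf3 was C1qtnf1 (0.30), to Sesn2 St14 (0.10), to Cebpg Csrnp1 (0.04), to Cebpb Rilpl1 (0.22) and to Atf5 Ppp1r35 (0.21), the last 2 with the high value of library 3 in the profile.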

How the data were processed

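Libraries were amplified from RNA of sorted, cultured CD4+ T cells and sequenced as read pairs, per the labels' protocols. The authors deposited 1 table of raw read counts per gene. The submitters' processing notes name Trimmomatic 0.38, STAR 2.7.0e and featureCounts 1.6.3, and both GRCm38.p5 and mm10 as builds, and the sources used here do not give the strand setting. From the counts, edgeR 4.0.16 in R 4.3.3 was used with TMM factors, filterByExpr at a minimum count of 10, 1 mean for each of the 8 groups over all 23 libraries (15 residual degrees of freedom) and the quasi-likelihood F test, with Benjamini-Hochberg adjustment over the 16882 genes tested and a threshold of 0.05. Counts ran from 13205565 to 30090018 per library, with a common biological coefficient of variation of 27.4%. Levels are CPM with TMM factors, divided by exon length where genes are compared. Floors and intervals of counts cover counting error only. No 2 libraries held identical counts. The fit was tested on simulated data with 200 changed genes. DESeq2 1.42.0, voom with quality weights (limma 3.58.1), RLE factors, no filter, the compared groups only, a replicate block and leaving out libraries were tried as alternatives. Leaving out libraries 1 and 2 together, or the shallowest library, was chosen with results of these data known. The members and lists were chosen with earlier results of these data known. The 10 members were named in every comparison whatever their values. List genes named were among the 3 with the largest change, past the threshold and at 5 CPM or more on average. Promoter sequences are from RefSeq (GRCm38.p6).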

Additional observations from a re-analysis of the deposited data

How the results depend on the processing

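Counts of the 10 genes called changed as follows. Over all alternatives, the stimulation counts ran from 8 to 10 in wild-type-labelled cells, against 10, both with and without niacin. They ran from 7 to 10 in knockout-labelled cells without niacin, against 8, and from 8 to 9 in those with it, against 9. For the genotype difference by stimulation in niacin, 0 in edgeR became 1 (Ddit3) with DESeq2, with no filter, with voom and without the shallowest library, and leaving out 1 library gave 0 to 1. Without niacin that count became 2 with no filter. For the genotype label in stimulated cells with niacin, 1 became 2 with voom and without the shallowest library, and 0 without libraries 1 and 2 of the wild-type-labelled cells. In unstimulated cells the genotype count became 3 with no filter and ranged from 0 to 2 with 1 library left out. With no filter, 1 gene (Cebpb) was called for niacin in unstimulated knockout-labelled cells, for its difference by label and for stimulation by niacin under the knockout label. Under the knockout label without niacin, the stimulation effect turned to 1.15 for Atf5 and 1.75 for Cebpb with voom, and to 1.25 and 1.84 without the shallowest library, while leaving out 1 library gave -1.40 to 1.25 for Atf5 and -0.64 to 1.84 for Cebpb. Voom with quality weights can lower the weight of libraries that stand apart, but its weights were not inspected. The cause of these changes was not tested.

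Over all genes, the 243 calls for the genotype label in stimulated cells with niacin became 1122 with DESeq2, 3403 with voom, 1138 with no filter, 434 with the compared groups only, 1767 without the shallowest library and 7 without libraries 1 and 2. The 19 without niacin became 102 with DESeq2, 169 with voom and 208 with no filter. Niacin in stimulated wild-type-labelled cells went to 42, 1828 and 344 calls with these settings, against 0, and in knockout-labelled cells to 11, 8 and 101, against 1. Stimulation calls became 5880 of 8903 with the compared groups only (knockout label, no niacin) and 4800 of 8888 without libraries 1 and 2 (wild-type label, niacin). Same-numbered libraries correlated above 0.1 in 5 of 33 pairs, and 7 of 23 libraries correlated best with their own number. The highest values were for niacin in unstimulated wild-type-labelled cells, at 0.29, 0.03 and 0.23 for numbers 1, 2 and 3. Weak correlations over all genes cannot exclude a pairing, so whether the numbers pair the samples is not known. With a replicate block, Ddit3 in stimulated cells with niacin gave -1.03 (adjusted p = 0.00267), and no call among the 10 genes changed. Atf5, Chac1 and Atf3 in unstimulated cells rest on few counts, which limits their fold changes.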
